A study of Arabidopsis thaliana with 26 samples.

Results

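Quiescent centre (QC) cells of the jkd mutant of Arabidopsis were compared with QC cells of wild type (WT) plants grown alongside them, on 3 arrays each, 6 of the 26 arrays in the series. The arrays were chosen by the names of their columns alone, and all 16384 probe sets on the tables were considered. The jkd QC arrays carry the allele jkd-4, and the WT QC arrays are Col-0. The sorted cells expressed green fluorescent protein (GFP) from the WOX5 promoter, and were taken from roots 3 days after germination. Roots were protoplasted, GFP-positive cells were sorted straight into extraction buffer, and the RNA was amplified before labelling. A further 3 WT QC arrays came from a harvest made at another occasion, sorted with the same promoter at the same age. Excised meristems gave 3 arrays of jkd and 3 of WT, also at 3 days, and their labels name no allele. The rest of the series follows SCR-promoter cells under auxin treatment and is used here only in an alternative fit.

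The labels of the jkd QC arrays are not free of conflict. Their descriptions refer to an earlier published cell type profile, and 1 source name misspells the genotype, so the titles were used to assign it. Nothing in the labels ties the replicate arrays to separate plantings. The p-values below reflect array-to-array spread alone, and part or all of it may be technical.

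The QC is a small group of rarely dividing cells at the centre of the root stem cell niche, and it keeps the surrounding stem cells undifferentiated. JACKDAW (JKD) encodes a C2H2 zinc finger transcription factor of the INDETERMINATE DOMAIN (IDD) family. It acts with the GRAS proteins SHORT-ROOT (SHR) and SCARECROW (SCR) in the ground tissue and QC. It limits the movement of SHR and also influences epidermal cell fate from the cortex beneath. WOX5 and PLT2 were not analysed here, and most genes of chromosome 2 were not either.

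Signals are MAS5 intensities, and differences are jkd minus WT on the scale of log2(signal + 16), ± the standard error of the fit. The added 16 shrinks differences of weak genes. A probe set passed at a Benjamini-Hochberg adjusted p under 0.05 in limma, with adjustment over all 11469 probe sets tested. The median signal was 65.5, 67.5 and 66.5 on the jkd QC arrays, against 74.8, 85.4 and 79.9 on the WT QC arrays. These groups did not overlap (66.5 ± 0.99 against 80.0 ± 5.33, SD, n = 3 each, two-sided exact permutation p = 0.1, the smallest p that 3 against 3 arrays allow). Array correlations lay at 0.908 to 0.918 within jkd QC, 0.908 to 0.946 within WT QC, and 0.886 to 0.934 between the 2 groups. Within the meristem groups they were 0.981 or higher. Genes of the plastid genome averaged 9.90 ± 0.31 on the log2 scale in jkd QC and 9.89 ± 0.36 in WT QC (SD, n = 3 each).

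Niche genes were strong in the sorted cells of both genotypes. The summed signal of the 13 measured genes on the QC and niche list was 3039, 3850 and 4346 in jkd QC, against 3272, 4192 and 3026 in WT QC. In the jkd meristem that sum was 1357, 1535 and 1693, against 1412, 1642 and 1557 in the WT meristem. All sorted arrays were above all meristem arrays, and the 2 QC genotypes overlapped. Markers of other cell types were measurable in the sorted cells too, and their values stand beside the results below.

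JKD itself was low in both mutant tissues. Its signals were 1.37, 24.9 and 6.60 in jkd QC, against 68.7, 74.0 and 109 in WT QC. The 3 mutant arrays were below the 3 wild type arrays, with a difference of -1.96 ± 0.52, which did not pass (limma adjusted p = 0.204, unadjusted p = 0.00167). The size depended on the added constant, at -3.42 with 1 and -0.98 with 64. In the meristem JKD signals were 11.3, 13.3 and 6.23 in jkd, against 201, 173 and 184 in WT. There JKD fell by 2.95 ± 0.19 and passed (limma adjusted p = 2.31e-06). The separate WT QC harvest had 111, 88.1 and 138. The labels do not give the position of the lesion in the gene, so the distance between it and the probes is not known here.

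Few genes separated jkd QC from WT QC. Of 11469 probe sets tested, 12 passed (0.105%), with 10 higher (0.0872%) and 2 lower (0.0174%) in jkd. At an unadjusted p under 0.05, 362 were higher (3.16%) and 674 lower (5.88%). The median difference over all tested probe sets was -0.10, and 42% of them were above 0. Quantile normalization moved that median to -0.01 and gave 474 higher and 494 lower at the same unadjusted threshold, so the excess of lower values depended on the scaling. The 12 calls comprised AIF3, NAP, IDD7, TI1, PME17, 5 genes known here only by locus code, CCH and PRP3. NAP, TI1, IDD7, CCH and PRP3 are named by the rule given under processing, and the other 7 were singled out after their values were seen. For NAP, TI1, CCH and PRP3 that rule required groups without overlap.

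**Figure D1:**
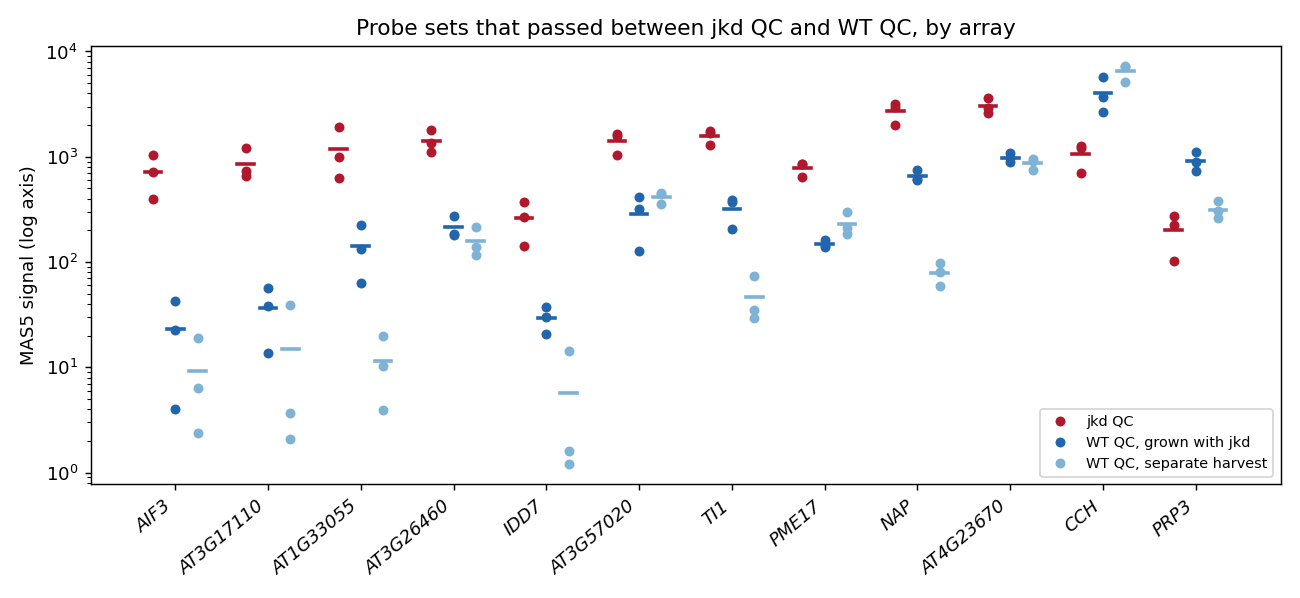
MAS5 signal (log axis) of the 12 probe sets that passed between jkd QC and WT QC, 1 point per array and a bar at the mean of each group of 3 arrays, for jkd QC, WT QC grown with jkd, and the separate WT QC harvest. The jkd QC points lie above all WT QC points for 10 probe sets and below them for CCH and PRP3. For PRP3 the separate harvest overlaps jkd QC.

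A pair of neighbouring loci on chromosome 3 had the largest differences of the 12. AIF3, which codes for ATBS1 INTERACTING FACTOR 3, gave signals of 714, 1049 and 393 in jkd QC, against 22.4, 4.00 and 42.3 in WT QC. The lowest jkd array was above the highest WT array, and AIF3 was higher by 4.26 ± 0.49 (limma adjusted p = 0.00156). AT3G17110, annotated by RefSeq as a transcribed pseudogene, gave 655, 1199 and 737 in jkd QC, against 38.6, 13.8 and 57.1 in WT QC. It was higher by 4.11 ± 0.44 (limma adjusted p = 0.00109), again without overlap. Both were near background in the separate WT QC harvest, at 19.0, 6.30 and 2.40 for AIF3 and 39.0, 3.70 and 2.10 for AT3G17110.

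AT3G17090, the gene on the other side of AIF3, did not pass in the QC. Its signals were 312, 519 and 436 in jkd QC, against 35.3, 52.1 and 159 in WT QC, a difference of 2.34 ± 0.47 with no overlap (limma adjusted p = 0.0763). In the meristem it had 596, 726 and 727 in jkd, against 0.47, 0.62 and 0.53 in WT. It was higher there by 5.39 ± 0.18 (limma adjusted p = 2.32e-09). AIF3 was higher in the jkd meristem by 5.38 ± 0.24 (limma adjusted p = 4.67e-08), with 774, 1199 and 609 against 3.88, 1.83 and 7.66 in WT. Every WT meristem signal of both genes was under the added 16, so the sizes and standard errors depend on that constant. With 1 added they were 8.79 ± 0.25 for AT3G17090 and 7.39 ± 0.39 for AIF3, and with 64 added 3.53 ± 0.15 and 3.71 ± 0.20, and they passed in each of these limma fits. AT3G17110 was too weak in the meristem to be tested, at 13.5, 18.8 and 34.1 in jkd against 19.0, 1.35 and 2.89 in WT.

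These 3 loci are consecutive in the RefSeq gene order of assembly TAIR10.1. Among genes up to 10 places to either side, 13 other probe sets were measured. They lay between -1.01 and 0.54 in the QC and between -0.28 and 0.34 in the meristem. The QC values of the 3 loci thus lay above every measured neighbour.

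**Figure D2:**
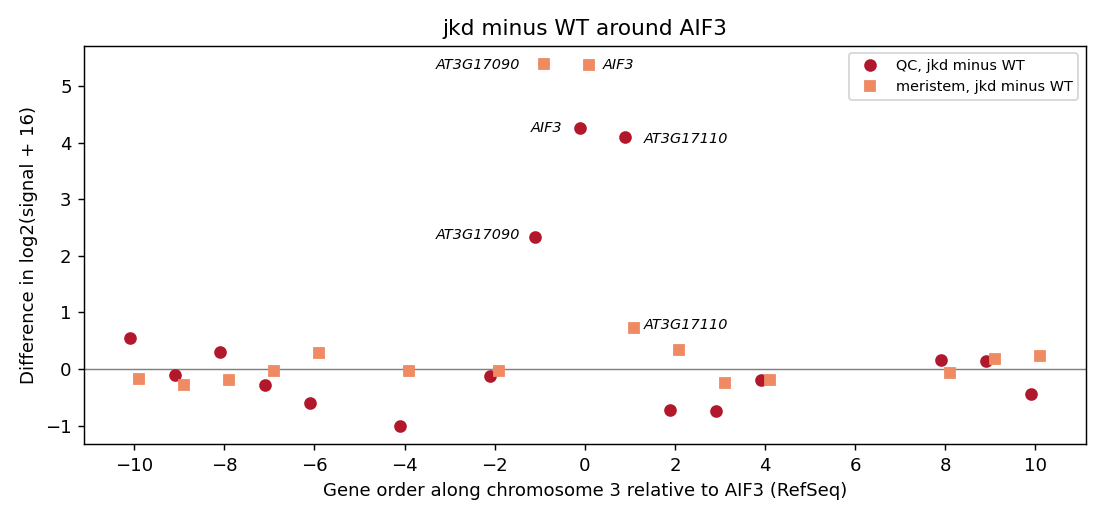
Difference between jkd and WT in log2(signal + 16) (vertical axis) for genes ordered along chromosome 3 relative to AIF3 at 0 (horizontal axis, in gene places), with circles for the QC and squares for the meristem, means of 3 against 3 arrays. AT3G17090, AIF3 and AT3G17110 stand at 2.34, 4.26 and 4.11 in the QC, and the 13 other probe sets lie between -1.01 and 0.54. Several of those 13 were too weak to be tested in the QC.

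IDD7, a zinc finger gene of the same family as JKD, gave 144, 373 and 268 in jkd QC, against 30.3, 20.9 and 37.3 in WT QC. It rose by 2.53 ± 0.46 (limma adjusted p = 0.0492), with all mutant arrays above all wild type arrays. The 23 gene lists had 197 measured members, not all of them strong enough to test. Among those tested IDD7 alone passed in the QC, against 0.105% of all tested probe sets. In the meristem its signal was high in both genotypes, at 205, 297 and 216 in jkd against 166, 180.2 and 148 in WT, and it did not pass there (0.49 ± 0.20, limma adjusted p = 0.493).

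NAP encodes a NAC transcription factor known for promoting leaf senescence. Its signals were 1989, 2979 and 3204 in jkd QC, against 611, 605 and 751 in WT QC. It rose by 2.01 ± 0.29 in the QC (limma adjusted p = 0.0124) with no overlap. In the meristem NAP had 115, 93.2 and 95.6 in jkd, against 2.54, 22.7 and 21.2 in WT, and rose by 1.97 ± 0.26 (limma adjusted p = 0.00223). The separate WT QC harvest held 59.5, 97.8 and 80.1, so the WT arrays grown with jkd were themselves well above it.

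Genes of defence and of the cell wall were among the other calls. TI1, a trypsin inhibitor gene, had 1750, 1685 and 1300 in jkd QC, against 370.3, 205 and 387 in WT QC. It rose by 2.28 ± 0.34 (limma adjusted p = 0.0124), and the groups stood clear of each other. PME17, a pectin methylesterase gene, had 643, 857 and 860.5 in jkd QC, against 140.3, 146 and 162 in WT QC. PME17 rose by 2.27 ± 0.34 (limma adjusted p = 0.0145), again with no overlap. Both genes were weak in the meristem of either genotype, with no array above 41.5. The separate WT QC harvest had 74.5, 29.6 and 35.1 for TI1, below WT QC. For PME17 it had 209, 301 and 185, above WT QC.

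AT3G26460 had 1341, 1119 and 1781 in jkd QC, against 185, 179 and 275 in WT QC, and rose by 2.64 ± 0.34 (limma adjusted p = 0.00396). The adjacent gene AT3G26450 had 245, 259 and 329 in jkd QC, against 42.5, 54.6 and 56.1 in WT QC, with no overlap. Its difference of 2.13 ± 0.40 did not pass (limma adjusted p = 0.0583). Neither gene was above 15.2 on any meristem array. AT1G33055 had 1909, 629 and 1001 in jkd QC, against 226, 134 and 62.6 in WT QC, and rose by 2.93 ± 0.47 (limma adjusted p = 0.0247). The separate WT QC harvest had 10.3, 3.90 and 20.0 for AT1G33055, below WT QC. For AT3G26460 it had 116, 216 and 140, where the WT groups overlapped.

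AT4G23670 was already strong in wild type. It had 3590, 2924 and 2623 in jkd QC, against 1096, 967 and 885 in WT QC, and rose by 1.61 ± 0.27 (limma adjusted p = 0.0281). AT3G57020 had 1658, 1559 and 1048 in jkd QC, against 416, 127 and 317 in WT QC, and rose by 2.36 ± 0.40 (limma adjusted p = 0.0382). It also rose in the jkd meristem, by 1.27 ± 0.17 (limma adjusted p = 0.00223). For both genes all jkd QC arrays were above all WT QC arrays.

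The 2 genes that fell were CCH and PRP3. CCH, a copper chaperone gene, had 1276, 1218 and 700.4 in jkd QC, against 5696, 2668 and 3706 in WT QC. It fell by 1.88 ± 0.33 (limma adjusted p = 0.0388), and the separate WT QC harvest was higher still, at 5143, 7305 and 7073. PRP3, a proline-rich cell wall protein gene of root hairs, had 103, 272 and 225 in jkd QC, against 1121, 889 and 732 in WT QC. It fell by 2.18 ± 0.39 (limma adjusted p = 0.0492). The separate harvest had 260.0, 377 and 308 for PRP3, close to the mutant, and that comparison did not pass (-0.70 ± 0.37, limma adjusted p = 0.187).

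The calls rested on few arrays. Without jkd QC replicate 3, 2 probe sets passed, AIF3 and AT3G17110. Without WT QC replicate 3, 6 passed. The 16 alternatives include a replicate block, in which all 12 calls passed although the replicate numbers did not pair the arrays. AIF3 and AT3G17110 passed in all 16 alternatives, and AT3G26460 and NAP in 14 of them. TI1 passed in 13, PME17 in 11 and AT1G33055 in 10, while IDD7, CCH, PRP3, AT3G57020 and AT4G23670 passed in 9. When 1 array was left out, AT4G23670 passed in 0 of 6 limma fits, and IDD7, CCH, PRP3 and AT3G57020 in 1 of 6 each.

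Beyond the calls, 10 genes with lower signal in jkd were named by the same rule, and none of them passed in the QC. CASP5, described with the Casparian strip genes below, came nearest (-3.39 ± 0.62, limma adjusted p = 0.0522). MRH2, a kinesin gene of root hair growth, had 179, 25.3 and 1.79 in jkd QC, against 669, 484 and 471 in WT QC (-3.40 ± 0.65, limma adjusted p = 0.0646). PRP1, another proline-rich protein gene of root hairs, had 26.8, 3.00 and 82.9 in jkd QC, against 533, 168 and 326 in WT QC (-2.91 ± 0.58, limma adjusted p = 0.0760). Mutant arrays were below wild type arrays throughout for both, as the naming rule required. PERK13, a receptor-like kinase gene, had 105, 42.0 and 33.5 in jkd QC, against 758, 221 and 292 in WT QC (-2.45 ± 0.51, limma adjusted p = 0.0903). AGP13, an arabinogalactan protein gene, differed by -2.10 ± 0.41. ASD1, an arabinofuranosidase gene, differed by -2.26 ± 0.48 and CNGC9, a cyclic nucleotide-gated channel gene, by -2.19 ± 0.50. The remaining genes named on this side were ENODL9 at -2.39, PK3 at -1.33 and CYP705A12, a cytochrome P450 gene, at -1.63.

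CYP705A12 also separated the meristems. It had 321, 247 and 344 in jkd QC, against 1026, 1151 and 767 in WT QC (limma adjusted p = 0.0763). In the meristem it had 288, 395 and 298 in jkd, against 641, 1196 and 1222 in WT, and fell by 1.55 ± 0.24 (limma adjusted p = 0.00674). The groups did not overlap in the meristem, and in the QC the naming rule required that they did not.

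On the higher side, the genes nearest to passing included stress-related ones. HSP21, a plastid small heat shock protein gene, had 564, 636 and 1006 in jkd QC, against 213, 125 and 204 in WT QC (1.92 ± 0.38, limma adjusted p = 0.0708). NAC047, a NAC transcription factor gene, had 832, 1384 and 612 in jkd QC, against 272, 95.9 and 233 in WT QC (2.18 ± 0.43, limma adjusted p = 0.0708). WRKY75, a transcription factor gene of phosphate starvation and senescence, had 1118, 1714 and 649 in jkd QC, against 298, 289.8 and 343 in WT QC (1.75 ± 0.37, limma adjusted p = 0.109). No array of jkd QC overlapped WT QC for these genes, as the naming rule required. In the separate WT QC harvest each was lower than in WT QC. Mean signals there were 45.6 for HSP21, 53.8 for NAC047 and 163 for WRKY75. The others named were HB53, a homeobox gene, at 2.79, CMPG1, a ubiquitin ligase gene, at 1.75, LTP3, a lipid transfer protein gene, at 1.64, MPL1, a lipase gene, at 1.44, and SAP10, a zinc finger gene, at 1.40. HSP23.6, of the mitochondrial small heat shock proteins, stood at 1.72. None of these 9 genes passed.

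In the SHR-SCR-JKD module the lowest values were those of its core. Of 9 tested members, 0 passed in limma, and 3 had an unadjusted p under 0.05, all lower, against 5.88% of all tested probe sets: JKD, SCR and SHR. SCR had 72.5, 89.7 and 58.0 in jkd QC, against 225, 418 and 125 in WT QC, a difference of -1.47 ± 0.46 with no overlap (limma unadjusted p = 0.00594, adjusted p = 0.2997). SHR had 11.5, 34.6 and 60.6 in jkd QC, against 88.5, 148 and 50.8 in WT QC, where the groups overlapped (-1.14 ± 0.53). NUC, a paralogous IDD gene, stood at -0.32, RBR1, the retinoblastoma-related cell cycle repressor, at 0.27 and CYCD6;1, a D-type cyclin gene activated by SHR and SCR, at 0.41. The median of the list was -0.12, close to that of all tested probe sets, and it was 0.13 after quantile normalization. In the meristem SCR had 179, 188 and 176 in jkd, against 276, 230.1 and 236 in WT (-0.42, limma adjusted p = 0.546). There JKD alone of the 10 tested members passed, as lower, against 0.157% of all tested probe sets.

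Niche genes gave no call. Of 13 tested, 0 passed in limma, and 2 had an unadjusted p under 0.05, both higher, against 3.16% of all tested probe sets. BBM, an AP2-type transcription factor gene of the PLETHORA group, had 318, 431 and 333 in jkd QC, against 154, 192 and 154 in WT QC (1.04 ± 0.36, limma adjusted p = 0.380). PSK5, a phytosulfokine precursor gene, had 395, 584 and 541 in jkd QC, against 194, 110.2 and 222 in WT QC (1.48 ± 0.38, limma adjusted p = 0.194). Neither gene overlapped between the groups, while in the separate WT QC harvest BBM stood at 434, 507 and 595, above all 3 mutant arrays. PLT1, another gene of the PLETHORA group, had 144, 262 and 368 in jkd QC, against 306, 687 and 356 in WT QC (-0.76 ± 0.43). AGL42, a MADS-box gene used as a QC marker, ranged so widely, at 26.4, 47.3 and 548 in jkd QC against 259.9, 141 and 62.8 in WT QC, that no difference was detectable (-0.39 ± 0.76). MYB56, a MYB gene, had 154, 95.3 and 187 in jkd QC, against 235, 290.1 and 193 in WT QC, below without overlap (-0.69 ± 0.40). TAA1, an auxin biosynthesis gene, had 209, 186 and 252 in jkd QC, against 289.7, 442 and 318 in WT QC, also below without overlap (-0.65 ± 0.37). So 2 of 13 lay above without overlap, against 5.25%, and 2 below, against 9.47%. The list median was -0.22, against -0.10 over all tested probe sets.

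**Figure D3:**
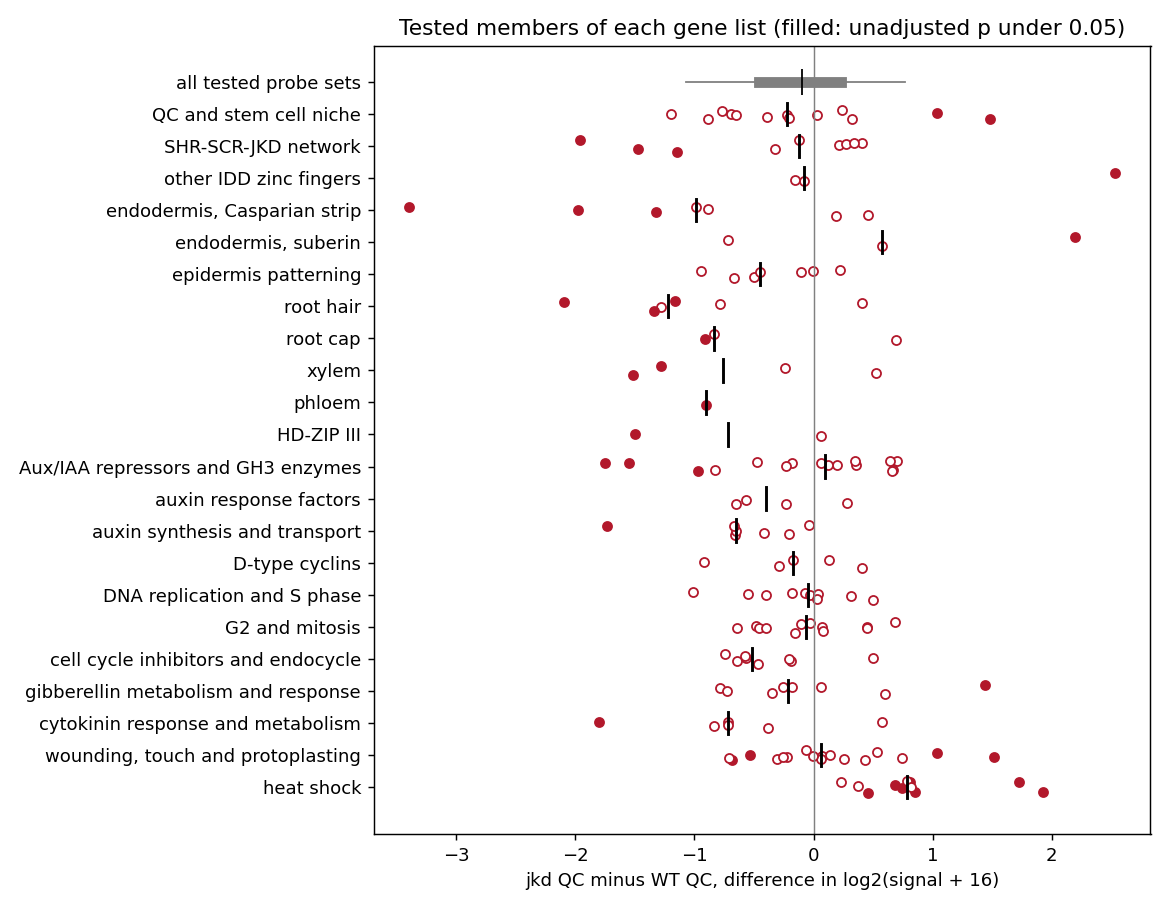
Difference between jkd QC and WT QC in log2(signal + 16) for each tested member of 22 gene lists, 1 circle per probe set, filled where the unadjusted limma p was under 0.05, with a black bar at the list median. The top row gives all 11469 tested probe sets, with a box from the 25th to the 75th percentile (-0.46 to 0.23) and whiskers from the 5th to the 95th (-1.07 to 0.77). The heat shock list lies wholly above 0, and IDD7 at 2.53 is the member that passed.

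Casparian strip genes, which build the lignified seal between endodermal cells, stood mostly lower. Of 7 tested, 0 passed in limma, 3 had an unadjusted p under 0.05, all lower, and 2 did not overlap, both below. Over all tested probe sets 5.88% were lower at that threshold, 9.47% lay below without overlap and 5.25% above. CASP5, a membrane scaffold gene of the strip, had 5.53, 104 and 1.05 in jkd QC, against 536, 277 and 301 in WT QC (-3.39 ± 0.62, limma adjusted p = 0.0522). CASP4, of the same family, had 23.56, 19.6 and 1.63 in jkd QC, against 135, 106 and 66.5 in WT QC (-1.98 ± 0.51, limma adjusted p = 0.194). PER64, a peroxidase of the strip, had 72.9, 40.1 and 184 in jkd QC, against 355, 132 and 269.5 in WT QC, where the groups overlapped (-1.33 ± 0.51). The list median was -0.99, and -0.83 after quantile normalization. MYB36, the transcription factor that switches on the strip, stood at -0.99 and SGN3, a receptor kinase gene, at 0.46.

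CASP5 was also low in the mutant meristem, with 36.3, 73.3 and 62.4 in jkd against 171, 257 and 232 in WT. It fell by 1.70 ± 0.24 there and passed (limma adjusted p = 0.00252), the only one of 4 tested Casparian genes to do so. Of all tested probe sets 0.157% passed as lower in the jkd meristem. The summed signal of the 7 Casparian genes was 436, 514 and 536 in jkd QC, against 1487, 823 and 1120 in WT QC, with no overlap. That sum was 2300, 3102.5 and 3165 in the separate WT QC harvest, so the WT harvests also stood apart. In these bulk samples fewer endodermal cells in the sort and less RNA of these genes per cell cannot be told apart. Among suberin genes, 3 of 10 measured were strong enough to test, and FAR1, a fatty acyl reductase gene, had 163, 284 and 95.4 in jkd QC, against 23.7, 66.8 and 2.84 in WT QC (2.20 ± 0.57, limma adjusted p = 0.194). KCS20, a fatty acid elongation gene, stood at 0.57, the list median, and ASFT, a feruloyl transferase gene, at -0.72.

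Epidermal patterning genes gave no call. Of 7 tested genes of epidermis patterning, 0 had even an unadjusted p under 0.05 in limma, and the median was -0.45. WER, the MYB gene that specifies cells without hairs, had 1352, 1380 and 1464 in jkd QC, against 1259, 2615 and 2110 in WT QC (-0.45 ± 0.30). GL2, a homeobox gene that represses hair fate, had 7.32, 1.71 and 42.8 in jkd QC, against 18.7, 168 and 11.2 in WT QC (-0.95 ± 0.71). For both the groups overlapped.

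Of the 6 root hair genes tested, 0 passed in limma and 3 had an unadjusted p under 0.05, all of them lower and without overlap, at a list median of -1.22. Of all tested probe sets 5.88% were lower at that threshold and 9.47% lay below without overlap. The summed signal of the list overlapped, at 1814, 1464 and 1056 in jkd QC against 3757, 1429 and 2039 in WT QC. RHD6, a transcription factor gene that starts hair formation, had 521, 568 and 368 in jkd QC, against 1976, 874 and 749 in WT QC (-1.16 ± 0.38, limma adjusted p = 0.323). RSL4, which sets hair length, had 106, 46.5 and 47.4 in jkd QC, against 230.2, 184 and 141 in WT QC (-1.33 ± 0.44, limma adjusted p = 0.329). EXPA18, an expansin gene of hairs, had 2.49, 24.8 and 60.6 in jkd QC, against 192, 72.7 and 229 in WT QC (-2.10 ± 0.58, limma adjusted p = 0.227). RHD2, an NADPH oxidase gene, went the other way at 0.41. In the meristem the median of the same list was -0.14 and 0 of 6 passed in limma, against 0.933% of all tested probe sets.

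Other cell type lists held few testable genes. Among xylem genes 2 of 4 tested had an unadjusted p under 0.05, both lower, against 5.88% of all tested probe sets: CESA4, a cellulose synthase gene of secondary walls, at -1.52 ± 0.50, and XCP1, a protease gene of vessels, at -1.28 ± 0.46. CESA7, of the same cellulose synthase family, stood at -0.24 and TMO5, a vascular transcription factor gene, at 0.52. The root cap list had SMB, a NAC gene of cap maturation, at -0.91, its relative BRN1 at -0.83 and BRN2 at 0.69. The phloem list had OPS at -0.90. The HD-ZIP III list of homeobox genes had 2 tested members, ATHB8, a vascular gene, at -1.50 and another at 0.06. The cortex list had 0 measured genes. Summed root cap signal was 288, 258 and 259 in jkd QC, against 269, 390.2 and 376 in WT QC, and it was 1080, 1239 and 1238 in the separate WT QC harvest. Their part in the results was not tested.

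Auxin response genes gave no call and no common direction. Of 16 tested Aux/IAA and GH3 genes, which are induced by auxin and feed back on its response, 0 passed in limma and 3 had an unadjusted p under 0.05, all lower, against 5.88%, with a list median of 0.09. IAA4 had 81.5, 61.9 and 59.1 in jkd QC, against 228, 242 and 211 in WT QC (-1.55 ± 0.39, limma adjusted p = 0.177). IAA1 had 50.3, 120.0 and 177 in jkd QC, against 312, 682 and 270.5 in WT QC (-1.75 ± 0.48, limma adjusted p = 0.224). IAA2 stood at -0.97 ± 0.31, and these 3 lay below without overlap, against 9.47% of all tested probe sets, while IAA30 stood at 0.64 and IAA16 at 0.70. All 7 tested genes of auxin synthesis and transport were negative, from -1.73 for LAX3, an auxin influx carrier gene, to -0.04 for YUC8, a biosynthesis gene, with a median of -0.65, and -0.47 after quantile normalization. Of all tested probe sets 42% were above 0.

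Cell cycle genes gave no call. In limma 0 of 5 D-type cyclin genes, 0 of 10 genes of DNA replication and S phase, and 0 of 12 probe sets of G2 and mitosis had an unadjusted p under 0.05. Their medians were -0.17, -0.05 and -0.07, and 0.07, 0.01 and 0.09 after quantile normalization. TSO2, a ribonucleotide reductase subunit, had 655, 445 and 440.0 in jkd QC, against 285, 569 and 267 in WT QC. CYCB1;1, a mitotic cyclin gene, had 74.2, 23.5 and 48.4 in jkd QC, against 73.4, 11.5 and 64.3 in WT QC. The groups overlapped for both, and with 3 arrays a side a small difference was not detectable. The jkd QC arrays lay below without overlap for 1 D-type cyclin gene and for 2 S phase genes, against 9.47% of all tested probe sets. CYCD4;1 had 26.6, 22.0 and 31.3 in jkd QC, against 37.3, 72.4 and 94.2 in WT QC (-0.92 ± 0.49). Among the S phase genes these were CYCA3;1, a cyclin gene, at -1.01 ± 0.51, and ICU2, a DNA polymerase subunit gene, at -0.55 ± 0.46. Inhibitors of the cell cycle had a median of -0.52 over 8 tested, with 0 at an unadjusted p under 0.05 in limma. One inhibitor gene, KRP7, lay below without overlap, with 78.0, 75.2 and 146 in jkd QC against 159, 210.5 and 148 in WT QC.

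Hormone lists held single members past the unadjusted threshold. Of 8 gibberellin genes 1 was higher, against 3.16% of all tested probe sets. Of 6 cytokinin genes 1 was lower, against 5.88%. In each list 1 gene lay below without overlap, against 9.47%. Among gibberellin genes GA2OX2, a catabolic oxidase gene, had 295, 387 and 178 in jkd QC, against 215, 39.3 and 78.1 in WT QC, a difference of 1.44 with overlapping groups. CKX6, a cytokinin oxidase gene, had 52.7, 7.42 and 17.0 in jkd QC, against 72.3, 221 and 91.4 in WT QC (-1.80 ± 0.55, no overlap, limma unadjusted p = 0.00496). Neither passed in limma, as 0 of 8 gibberellin and 0 of 6 cytokinin genes did.

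Heat shock genes were higher in jkd QC by direction, though 0 of 11 passed in limma. All 11 differences were positive, against 42% of all tested probe sets, 9 lay above without overlap, against 5.25%, and 7 had an unadjusted p under 0.05, against 3.16%. The list median was 0.78, and 0.71 after quantile normalization. HSP17.4, a cytosolic small heat shock protein gene, had 21547, 13351 and 13868 in jkd QC, against 9618, 8386 and 8465 in WT QC (0.85 ± 0.22, limma adjusted p = 0.177). HSP101, a disaggregase gene, overlapped between the groups, with 10880, 5711 and 9090 in jkd QC against 7909, 7333 and 5988 in WT QC. The summed signal of the list was 108786, 74427 and 79083 in jkd QC, against 63856, 51051 and 54437 in WT QC. That sum was 11650, 7424 and 8732 in the separate WT QC harvest, so both groups of the main comparison stood far above it. In the excised meristem the sum was 836, 1046 and 917 in jkd, against 575, 647 and 599 in WT. There 1 of 7 tested members passed in limma, as higher, against 0.776% of all tested probe sets. The list median in the meristem was 0.49.

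**Figure D4:**
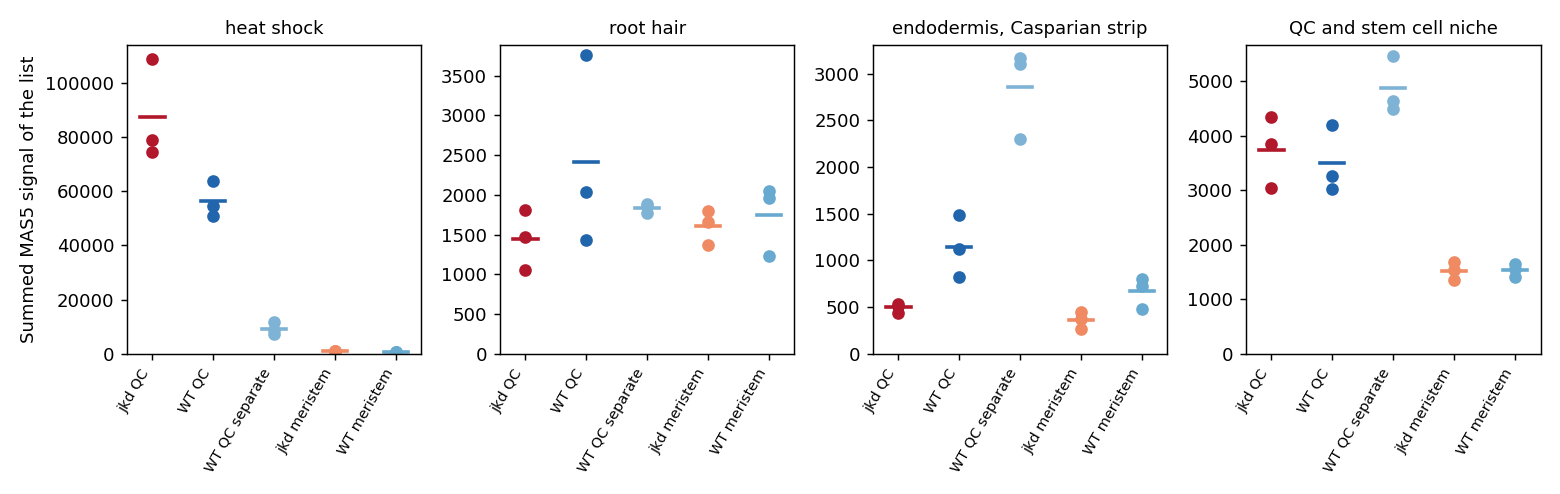
Summed MAS5 signal (linear vertical axes from 0, each with its own range) of 4 gene lists on each array of jkd QC, WT QC, the separate WT QC harvest, jkd meristem and WT meristem, with a bar at the mean of 3 arrays. Heat shock sums run from 74427 to 108786 in jkd QC and from 51051 to 63856 in WT QC, and Casparian sums from 436 to 536 in jkd QC and from 823 to 1487 in WT QC.

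The list of wounding, touch and protoplasting genes had no such shift. Of 17 tested, 0 passed in limma, 2 were higher (against 3.16%) and 2 lower (against 5.88%) at an unadjusted p under 0.05, and the median was 0.06. JAZ8, a jasmonate repressor gene, had 906, 1213 and 708 in jkd QC, against 536, 136 and 405 in WT QC (1.51 ± 0.44, limma adjusted p = 0.265). JAZ1, of the same family, had 24021, 23707 and 20887 in jkd QC, against 20091, 22395 and 23106 in WT QC, where the groups overlapped.

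The meristem arrays, which share no array with the QC comparison, gave 107 calls of 11469 (0.933%), with 89 higher (0.776%) and 18 lower (0.157%) in jkd. Of the 12 QC calls 8 were strong enough to test there, 7 had the same direction, and AIF3, NAP and AT3G57020 passed. Those 3 are 25% of the QC calls and 2.80% of the meristem calls. Of the 107 meristem calls 91 were tested in the QC, and 74 had the same sign there, 34 of them at an unadjusted p under 0.05. At that threshold 3.16% of all tested probe sets were higher and 5.88% lower in the QC. The 79 that were higher in the jkd meristem had a median QC difference of 0.60, with 63 positive, against 42% of all tested probe sets. The 12 that were lower had a median of -0.84, with 11 negative, against a median of -0.10 over all tested probe sets.

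The difference between the jkd effect in the QC and in the meristem was tested directly. In limma 0 of 11469 probe sets passed (0%), the smallest adjusted p was 0.0781, and 249 (2.17%) were higher and 660 (5.75%) lower at an unadjusted p under 0.05. That count depended on the constant added to the signals. With 1 added 2 probe sets passed, both negative. With 64 added 7 passed, all positive: AT3G17110, AT3G26460, PME17, AT3G26450, AT4G23670, TI1 and AT1G33055. All of these but AT3G26450 were among the QC calls. For AT3G17090 the difference of effects was -3.05 and for AIF3 -1.11 (limma adjusted p = 0.0781 and 0.691). The AT3G17090 value was -6.17 with 1 added, where it passed (limma adjusted p = 0.00223), and -1.72 with 64 added, where it did not (limma adjusted p = 0.167). Leaving out jkd QC replicate 1, 2 or 3 gave 3, 5 and 2 calls.

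**Figure D5:**
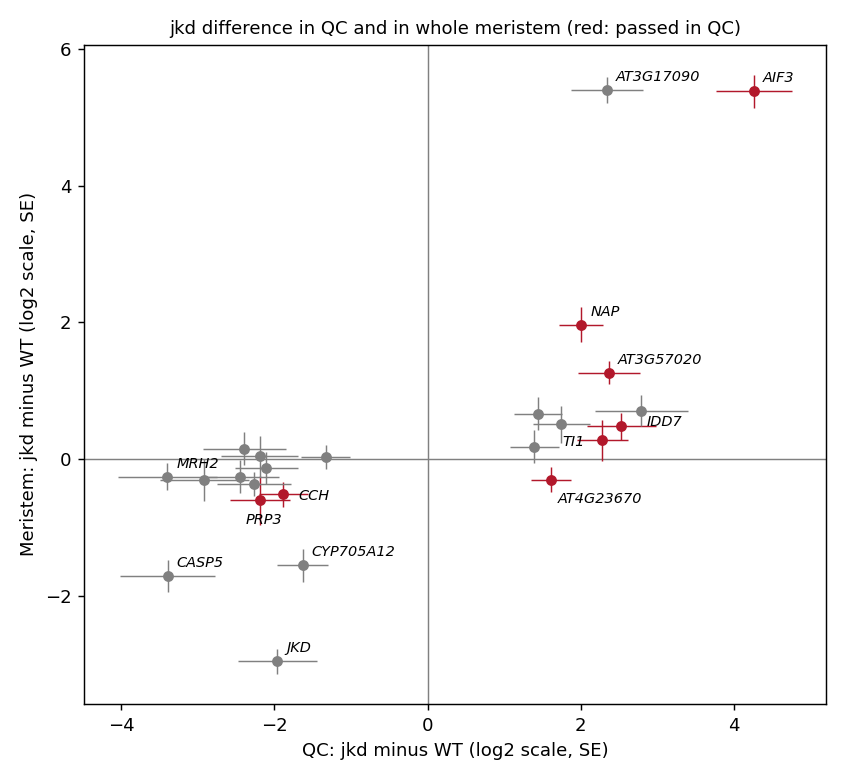
Difference between jkd and WT in the QC (horizontal axis) against that in the meristem (vertical axis), both in log2(signal + 16) with standard errors as bars, for the 24 named genes tested in both tissues, red where the gene passed in the QC. AIF3 stands at 4.26 and 5.38, NAP at 2.01 and 1.97, JKD at -1.96 and -2.95, and MRH2 at -3.40 and -0.25.

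Set against the separate WT QC harvest, the same jkd QC arrays gave 3039 calls (26.5%), with 1143 higher (9.97%) and 1896 lower (16.5%). Both comparisons share the jkd arrays, so they are not independent. All 12 QC calls had the same direction there and 11 passed, PRP3 being the exception. JKD fell by 2.33 ± 0.43 there and passed (limma adjusted p = 0.00232). Correlations of WT QC with the separate WT QC harvest were 0.871 to 0.913, against 0.962 to 0.969 within that harvest. Genotype and harvest cannot be told apart in this comparison.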

How the data were processed

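The authors deposited 1 linear MAS5 signal intensity for every probe set on each array, with MAS5 named in the submitters' processing notes. The sources used here name no MAS5 version, scaling target, array type or genome build. RNA was amplified before labelling, per the labels' protocols. Gene symbols came from the RefSeq table of assembly TAIR10.1 (16032 of 16255 loci), AIF3 and PME17 from its synonyms. The small number of arrays limits the precision.

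Signals were analysed as log2(signal + 16) with no further normalization. Each fit dropped probe sets whose mean fell under the 30th percentile, which left 11469. Linear models with moderated variances (limma 3.58.1, functions lmFit and eBayes, trended and robust prior, R 4.3.3) gave p-values, adjusted by Benjamini-Hochberg. The QC comparison, the meristem comparison and the comparison with the separate harvest used 6 arrays each, and the difference of effects 12. The fit was tested on simulated data. Figures were drawn with matplotlib 3.10.9.

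Members, the 23 gene lists and the naming rule were chosen with earlier results of these data known. The rule named JKD, list members that passed, and up to 12 genes per direction with a symbol, 1 locus, no overlap and a mean signal of at least 100 in the higher group, those passing first and then by smallest p. Sequences were not used here.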

Additional observations from a re-analysis of the deposited data

How the results depend on the processing

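For jkd QC against WT QC (12 calls), 7 probe sets passed with a pseudocount of 1, 2 with eBayes without trend and robust settings, 53 with array weights and 436 in a fit of all 26 arrays, which takes its spread mostly from other groups. A replicate block gave 41, but the numbers did not pair the arrays (correlations of same-numbered deviations 0.04, -0.02 and -0.04), so it is given only here. Pseudocount 64, no filter, a filter at the 50th percentile, quantile normalization and leaving out organelle genes gave 13 to 15, each with all 12 calls among them. Leaving out 1 array gave 2 to 10. All 12 calls were also among those of the array weights, 26-array and block fits.

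For the difference of effects between QC and meristem (0 calls), a pseudocount of 1 gave 2 calls and a pseudocount of 64 gave 7, the replicate block 0, and leaving out 1 array 0 to 5, with 3, 5 and 2 without jkd QC replicates 1, 2 and 3. For the meristem (107 calls), no filter gave 60, the replicate block 187, and leaving out 1 array 50 to 82, with 50 and 63 without jkd replicates 1 and 2 and 65 without WT replicate 3. Against the separate harvest (3039 calls), the block gave 3041 and leaving out 1 array 1616 to 3390, with 1689, 1616 and 1744 without its replicates 1, 2 and 3. Where a call count moved, the cause was not tested, except that leaving out an array leaves fewer arrays.

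For the 33 named genes over 16 alternatives, the replicate block among them, 0 of 526 values changed sign, 53 lost a call and 57 gained one. The pseudocount moved some differences by over 1.5 times: with 64, CASP5 stood at -2.21, ENODL9 at -1.46, CNGC9 at -1.31 and JKD at -0.98, and with 1 JKD stood at -3.42. JKD passed in the 26-array fit alone of the 15 alternatives that tested it. Signals near 16 and below limit what can be seen of weak genes, and 3 arrays a side cannot give an exact permutation p under 0.1.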

Other observations

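Several flavonoid genes passed between the jkd and WT meristems and did not pass in the QC. Of all tested probe sets 0.776% passed as higher in the jkd meristem. TT4, chalcone synthase, had 334, 319 and 251 in the jkd meristem, against 47.4, 37.0 and 32.9 in the WT meristem (2.53, limma adjusted p = 1.42e-05). F3H, a flavanone hydroxylase gene, had 934, 911 and 994 in the jkd meristem, against 194, 203 and 172 in the WT meristem (2.23, limma adjusted p = 1.09e-05). FLS1, a flavonol synthase gene, had 205, 183 and 156 in the jkd meristem, against 18.3, 19.9 and 24.7 in the WT meristem (2.41, limma adjusted p = 1.42e-05). MYB12, a regulator of these enzymes, had 268, 199.5 and 195 in the jkd meristem, against 35.1, 68.0 and 60.6 in the WT meristem (1.77, limma adjusted p = 0.00181). In the QC the differences were 0.71 for TT4, 0.16 for F3H, 0.73 for FLS1 and 1.00 for MYB12, and none passed in limma. There FLS1 and MYB12 lay above WT without overlap, against 5.25% of all tested probe sets, while TT4 and F3H overlapped. Mean signals in the separate WT QC harvest were above those in WT QC for each gene. They were 1074 against 361 for TT4, 1340 against 312 for F3H, 471 against 36.0 for FLS1 and 309 against 48.0 for MYB12. These genes were chosen after their values were seen, and the rest of the pathway is not counted here. None of them passed in the test of the difference between tissues.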
